A study of Mus musculus with 6 samples.

Results

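The 10 genes described here encode enzymes that build purine and pyrimidine nucleotides from small precursors. They were chosen by symbol, from textbook knowledge of the pathways, but with earlier results of these data known. All 10 were found among the 25638 genes of the deposited expression table. Ppat, Gart, Pfas, Paics, Adsl, Atic and Impdh2 belong to the purine route, and Cad, Umps and Ctps to the pyrimidine route.

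Expression was measured by RNA sequencing in mouse OT-I cells, CD8+ T cells whose transgenic receptor recognises the ovalbumin peptide OVA257-264. All groups were labelled WT and received this peptide for 48 hours, so that no group of unstimulated cells was compared. They were cultured with TANs, with TAMos or with vehicle alone, and each group had 2 libraries. TANs were sorted as CD11b+Ly6G+Ly6Clow and TAMos as CD11b+Ly6G-Ly6Chigh cells, both from spleen and not from tumour, in mice bearing LLC tumours, a Lewis lung carcinoma line. The labels do not spell out TAN and TAMo, nor do they state the ages, sex or number of the mice. T cells were purified again before their RNA was isolated. The labels do not say if replicate libraries stem from different cultures or mice, so p-values measure the spread between these libraries, which may be technical.

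A resting T cell lives largely on recycled nucleobases and nucleosides. A T cell that has been activated to divide must copy its genome and make much more ribosomal RNA, and it then builds new nucleotides through these enzymes. The purine route assembles a ring on a ribose phosphate until inosine monophosphate (IMP) is made, from which branches lead to guanine and adenine nucleotides. The pyrimidine route makes the ring first and joins it to the ribose phosphate later. The transcription factor Myc is a known activator of many of these genes in proliferating cells.

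Of the 10 genes, 9 have an entry among the RefSeq promoter windows used here, which run from 250 bases before to 50 bases after the annotated start on build GRCm38.p6. The stretches below hold the matches to the 6-base motifs found in these windows. Among their genes, Impdh2 and Paics had the lowest levels relative to vehicle in the TAMo cultures and Cad had the smallest difference, as described further on. Atic, however, had the smallest fall of the purine genes, and Umps and Ctps fell far more than Cad. The relation of the motifs to the levels was not tested. Capitals mark a 6-base motif that was searched on both strands, and each stretch reads along the strand of its gene. The motifs were chosen after the windows and the expression values had been seen.
Paics, chr5:76951087-76951116, + strand: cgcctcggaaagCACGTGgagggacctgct
Atic, chr1:71557137-71557166, + strand: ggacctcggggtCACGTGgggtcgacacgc
Impdh2, chr9:108560314-108560343, + strand: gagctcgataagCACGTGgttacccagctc
Cad, chr5:31054719-31054748, + strand: tggtcccgccccTGACGTgcccggccccgc
Cad, chr5:31054740-31054769, + strand: cggccccgccccTGACGTtgccggctgctt
Umps, chr16:33967018-33967047, - strand: gggacttctgggTGACGTcacgggccccaa
Ctps, chr4:120569645-120569674, - strand: cttgaggccactACGTCAgcgtggctgcct

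The motif CACGTG, the E-box letters to which Myc with its partner Max can bind, was present in the windows of 3 genes, Paics, Atic and Impdh2, and in 8.09% of the 27025 genes with a window. Its first base lay 203, 7 and 110 bases before the RefSeq start of these genes. The GENCODE coordinates differ from these starts. There Impdh2 begins at 108560286, so its match lies inside the gene, and Atic begins at 71557150, within its match. The Paics match lies before Paics but inside the neighbouring gene Ppat, which ends at 76951578. The letters TGACGT, or ACGTCA on the other strand, are a half-site of CREB and ATF factors. They were present in 3 genes, Cad, Umps and Ctps, and in 8.37% of all genes with a window. Their first base lay 49 and 28 bases before the start of Cad, but 3 and 5 bases after that of Umps. Ctps has 2 windows, and only the one whose start lies inside the annotated gene held a match, 203 bases before that start. The E2F letters TTTGGCGC, or GCGCCAAA on the other strand, were in none of the 9 genes and in 0.58% of all genes. With letters this rare, finding none in 9 genes does not set them apart from other genes. The counts of CACGTG and TGACGT cannot show that these letters are more frequent here either, because the motifs were chosen after the windows had been seen. A match describes letters only, and no binding was measured. The motifs did not overlap one another, apart from the 2 strands of TGACGT in Umps. There the capitals mark only the match on the strand of the gene, and the other match runs on into the next bases.

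Levels were given as FPKM, read fragments scaled to gene length and library size, which allows genes of different length to be compared. All 10 genes had at least 10 FPKM in every library, and the lowest value, 11.4 FPKM, was that of Umps in TAMo replicate 1. In vehicle cultures the mean levels ran from Impdh2, Paics, Adsl and Gart at the top, through Cad, Atic and Pfas, to Ctps, Ppat and Umps. The order in TAN cultures was the same apart from Ppat and Ctps, which changed places there without differing beyond the spread of Ppat. In TAMo cultures the order was Cad, Adsl, Gart, Impdh2, Atic, Paics, Ppat, Pfas, Ctps and Umps. Cad was thus the fifth gene in TAN and in vehicle cultures but the highest in TAMo cultures, and Impdh2 was the highest in TAN and in vehicle cultures but the fourth in TAMo cultures. In each group the libraries of neighbouring genes did not interleave, although the lower TAN library of Ppat (56.4 FPKM) lay next to those of Ctps (56.3 and 56.2 FPKM).

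**Figure D1:**
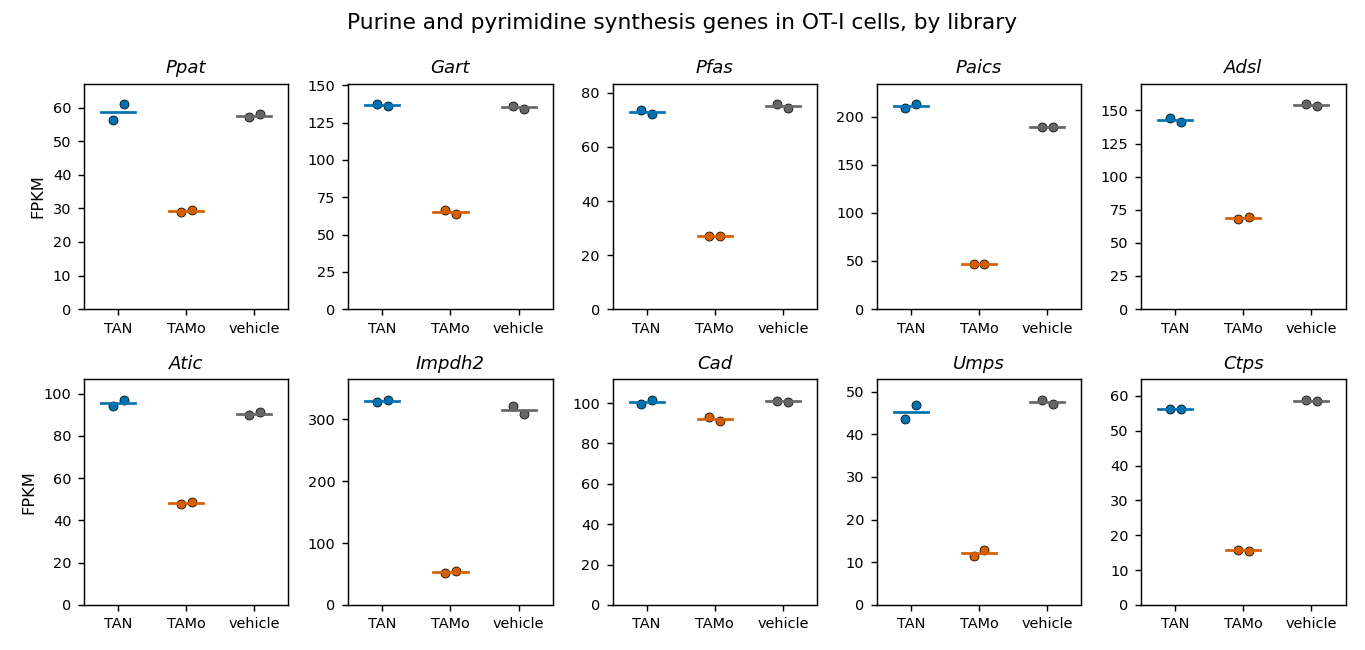
Level of each synthesis gene in every library (FPKM, linear axis from 0, 1 panel per gene), with TAN, TAMo and vehicle side by side, 2 points per group and a bar at the mean. The TAMo points lie below the other 4 for all 10 genes, by a wide gap for Impdh2 and by a narrow one for Cad.

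The summed level of the 10 genes was 1242 and 1257 FPKM in the TAN libraries, 457 and 460 FPKM in the TAMo libraries, and 1233 and 1215 FPKM in the vehicle libraries. These sums were 0.198% and 0.200% of all FPKM in TAN cultures, 0.0836% and 0.0839% in TAMo cultures, and 0.195% and 0.193% in vehicle cultures. The share devoted to these enzymes was thus similar in TAN and vehicle libraries and lower in both TAMo libraries. In RNA pooled over the purified cells, fewer cells that express a gene and less of its RNA per cell cannot be told apart.

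Each gene was tested with limma on log2(FPKM + 1), in 1 model over the 6 libraries and the 10727 genes that reached 1 FPKM in at least 2 libraries, and was called when its Benjamini-Hochberg adjusted p was under 0.05. The added 1 shrinks the log2 changes of low genes, whereas a fold given in the text is the plain ratio of mean FPKM. After ±, FPKM values carry the SD over 2 libraries and log2 changes their standard error.

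The first question was how T cells cultured with TAMos differed from those cultured with vehicle. All 10 genes were called lower in TAMo cultures, against 40.7% of all tested genes that were called lower in that comparison, and 45.7% called higher. With 86.5% of genes called, the size of a difference tells more than the call. A log2 change of -1 or less was reached by 7 of the 10 genes, against 14.4% of all genes that were called with such a change. The median log2 change was -1.30 over the 10 genes and 0.06 over all tested genes. The TAMo libraries lay below both vehicle libraries for all 10 genes, against 43.7% of all tested genes.

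The early purine genes Ppat, Gart and Pfas were at 50.6%, 48.2% and 35.9% of their vehicle level in TAMo cultures. Ppat, the amidotransferase that commits ribose phosphate to the purine route, had 28.9 and 29.5 FPKM in TAMo cultures, against 57.3 and 58.1 FPKM in vehicle cultures. Its log2 change was -0.96 ± 0.04 (limma, adjusted p = 3.75e-07), and the TAMo libraries were close to one another and far below those of vehicle. Gart, which carries 3 activities of the early route on one protein, had 66.5 and 63.9 FPKM in TAMo cultures and 136 and 134 FPKM in vehicle cultures, a log2 change of -1.04 ± 0.03 (limma, adjusted p = 3.56e-08). Pfas, the synthase that adds a nitrogen from glutamine, had 27.0 and 26.9 FPKM in TAMo cultures against 75.9 and 74.2 FPKM in vehicle cultures. It was 2.78-fold lower, a larger distance from vehicle than Ppat or Gart showed, and its log2 change was -1.44 ± 0.03 (limma, adjusted p = 8.00e-09).

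Paics, a bifunctional enzyme that carboxylates the ring intermediate and joins aspartate to it, had 46.3 and 47.0 FPKM in TAMo cultures, against 189.6 and 188.9 FPKM in vehicle cultures. It was 4.05-fold lower, with a log2 change of -1.997 ± 0.026 (limma, adjusted p = 1.24e-09), and the groups were far apart. Adsl, the lyase that next removes fumarate and also acts in the adenine branch, averaged 68.9 ± 1.39 FPKM in TAMo cultures and 154 ± 1.14 FPKM in vehicle cultures (SD, n = 2 each). Its log2 change was -1.15 ± 0.03 (limma, adjusted p = 1.76e-08). Atic, the bifunctional enzyme that closes the ring to give IMP, averaged 48.2 ± 0.91 FPKM in TAMo cultures and 90.6 ± 0.83 FPKM in vehicle cultures (SD, n = 2 each). Its log2 change was -0.90 ± 0.03 (limma, adjusted p = 8.81e-08), the smallest among the 7 purine genes.

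Impdh2, the dehydrogenase that diverts IMP towards guanine nucleotides and the target of mycophenolic acid, showed the greatest difference of the 10 genes. It had 52.1 and 54.5 FPKM in TAMo cultures, against 321 and 309 FPKM in vehicle cultures. The TAMo level was 16.9% of that of vehicle, 5.91-fold lower, with a log2 change of -2.54 ± 0.03 (limma, adjusted p = 1.24e-09). Counted from the most negative change, Impdh2 was at position 314 and Paics at position 481 of the 10727 tested genes.

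In the pyrimidine route, Umps and Ctps fell to 25.5% and 26.8% of their vehicle level in TAMo cultures, whereas Cad was at 91.3%. Cad carries the first 3 activities of the route, and it had 93.2 and 91.1 FPKM in TAMo cultures against 101.2 and 100.6 FPKM in vehicle cultures. The groups did not overlap, but the log2 change was only -0.13 ± 0.03, with a 95% interval of -0.20 to -0.06 (limma, adjusted p = 0.00304). When the libraries were rescaled without the transcripts of the mitochondrial genome, the Cad change was -0.03 and its call was lost (limma, adjusted p = 0.311). Umps, the bifunctional enzyme that makes uridine monophosphate, had 11.4 and 12.9 FPKM in TAMo cultures, against 48.1 and 47.1 FPKM in vehicle cultures. It was 3.93-fold lower (log2 change -1.89 ± 0.06, limma, adjusted p = 6.91e-08). Ctps, the first of the synthases that turn uridine into cytidine triphosphate, had 15.8 and 15.6 FPKM in TAMo cultures and 58.9 and 58.4 FPKM in vehicle cultures. The difference was 3.74-fold (log2 change -1.84 ± 0.03, limma, adjusted p = 3.48e-09). The ratio of Impdh2 to Cad was 3.27 ± 0.02 in TAN cultures, 0.578 ± 0.028 in TAMo cultures and 3.12 ± 0.07 in vehicle cultures (SD, n = 2 each), so that Impdh2 exceeded Cad in TAN and vehicle libraries and lay below it in TAMo libraries.

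**Figure D2:**
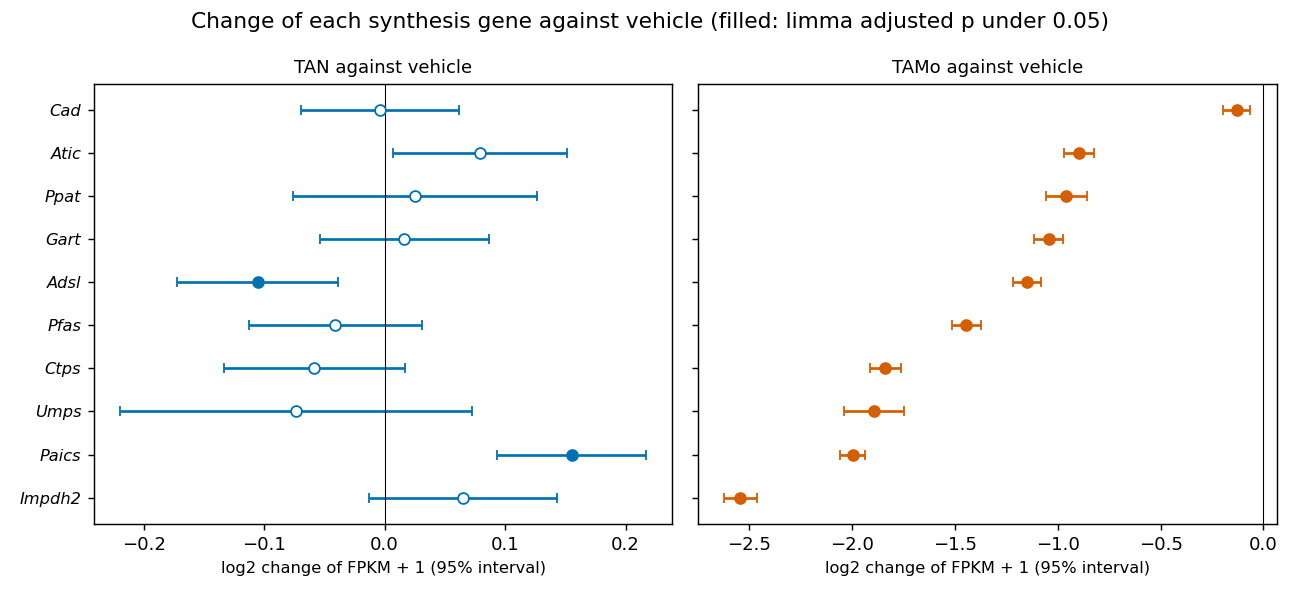
Log2 change of each synthesis gene in TAN against vehicle (left) and TAMo against vehicle (right), on the log2(FPKM + 1) scale, with 95% intervals, filled where called. The axes of the panels differ. TAMo against vehicle runs from -2.54 for Impdh2 to -0.13 for Cad, whereas all TAN against vehicle values lie between -0.11 and 0.16.

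The second question was how T cells cultured with TANs differed from those cultured with vehicle. This comparison shares its vehicle libraries with the one above. Of the 10 genes, 1 was called higher, against 9.37% of all tested genes, and 1 was called lower, against 11.0% of all tested genes. These shares are near the background. Paics had 209 and 213 FPKM in TAN cultures, against 189.6 and 188.9 FPKM in vehicle cultures, with no overlap. It rose 1.11-fold (log2 change 0.16 ± 0.03, limma, adjusted p = 0.00873), a call that was lost without TAN replicate 2 (limma, adjusted p = 0.0723), without vehicle replicate 1 (0.0596) or without vehicle replicate 2 (0.0598). Adsl had 144.6 and 141.5 FPKM in TAN cultures and 154.7 and 153.1 FPKM in vehicle cultures. Its log2 change was -0.11 ± 0.03 (limma, adjusted p = 0.0412), and this call was lost without any one of these 4 libraries, with adjusted p between 0.111 and 0.202.

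For the other 8 genes the TAN and vehicle levels were not told apart by the test. The intervals rest on the spread between these libraries, which may be technical, so they do not limit a difference between cultures or mice. Impdh2 had 328 and 331 FPKM in TAN cultures and 321 and 309 FPKM in vehicle cultures, with a 95% interval of -0.01 to 0.14 for its log2 change (limma, adjusted p = 0.214). Cad had 99.7 and 101.6 FPKM in TAN cultures, on both sides of the vehicle values, with an interval of -0.07 to 0.06. The widest interval was that of Umps, from -0.22 to 0.07, with 43.6 and 46.8 FPKM in TAN cultures against 48.1 and 47.1 FPKM in vehicle cultures. Ppat also overlapped, at 56.4 and 61.1 FPKM in TAN cultures against 57.3 and 58.1 FPKM in vehicle cultures. Of the remaining genes, Gart and Atic had both TAN libraries above those of vehicle, and Pfas and Ctps had both below. Over the 10 genes, 4 had all TAN libraries higher and 4 had all lower, against 30.8% and 33.3% of all tested genes.

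The third comparison set TAN against TAMo cultures directly, both of them with added myeloid cells. All 10 genes were called higher in TAN cultures, against 40.6% of all tested genes, and 7 had a log2 change of 1 or more, against 14.3% of all tested genes called with such a change. The median was 1.23 over the 10 genes and -0.07 over all tested genes. Impdh2 was 6.19-fold higher in TAN than in TAMo cultures (log2 change 2.61 ± 0.03, limma, adjusted p = 1.15e-09), Paics 4.52-fold, Umps 3.73-fold, Ctps 3.59-fold and Pfas 2.71-fold. Gart, Adsl, Ppat and Atic were between 1.99-fold and 2.10-fold higher. Cad was 1.09-fold higher (log2 change 0.13 ± 0.03, limma, adjusted p = 0.00352), and without the mitochondrial transcripts in the scaling its change was 0.03 and not called (limma, adjusted p = 0.331).

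Several steps of these routes have a second gene for the same reaction, and in TAMo cultures Impdh1 and Ctps2, the partners of Impdh2 and Ctps, were higher than with vehicle. Impdh1, the other IMP dehydrogenase, had 80.2 and 79.6 FPKM in TAN cultures, 88.3 and 86.1 FPKM in TAMo cultures, and 71.4 and 72.5 FPKM in vehicle cultures. It rose in TAMo cultures relative to vehicle (log2 change 0.27 ± 0.03, limma, adjusted p = 5.31e-05), the opposite direction to Impdh2. Impdh1 made up 19.5% ± 0.2 of the summed Impdh1 and Impdh2 level in TAN cultures, 62.1% ± 1.2 in TAMo cultures and 18.6% ± 0.6 in vehicle cultures (SD, n = 2 each). The sum of both was 409.5 ± 2.1 FPKM in TAN cultures, 140.5 ± 0.1 FPKM in TAMo cultures and 387 ± 8.0 FPKM in vehicle cultures, so the higher Impdh1 level did not bring the TAMo sum near that of vehicle.

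Ctps2, the second cytidine triphosphate synthase, had 14.7 and 13.5 FPKM in TAN cultures, 19.7 and 22.9 FPKM in TAMo cultures, and 12.9 and 11.6 FPKM in vehicle cultures. It rose in TAMo cultures (log2 change 0.75 ± 0.08, limma, adjusted p = 7.75e-05), and its share of the summed Ctps and Ctps2 level was 20.7% and 19.4% in TAN cultures, 55.5% and 59.5% in TAMo cultures, and 17.9% and 16.6% in vehicle cultures. A similar exchange was seen between Prps1 and Prps2, one step upstream of Ppat and Umps. They encode synthetases that make phosphoribosyl pyrophosphate, the activated ribose phosphate that both routes use. These 2 genes are not the whole step, since the related gene Prps1l3 averaged 32.5 FPKM in TAN cultures, 29.0 FPKM in TAMo cultures and 33.5 FPKM in vehicle cultures. Prps1 averaged 60.2 ± 0.26 FPKM in TAN cultures, 27.9 ± 0.11 FPKM in TAMo cultures and 55.6 ± 1.64 FPKM in vehicle cultures (SD, n = 2 each), and fell in TAMo cultures relative to vehicle (log2 change -0.97 ± 0.03, limma, adjusted p = 9.51e-08). Prps2 averaged 24.9 ± 0.04 FPKM in TAN cultures, 33.9 ± 0.71 FPKM in TAMo cultures and 20.9 ± 1.12 FPKM in vehicle cultures (SD, n = 2 each), and rose there (log2 change 0.67 ± 0.05, limma, adjusted p = 4.42e-06). The shares of such pairs are a description, since 2 libraries against 2 are too few for an exact permutation test to pass 0.05.

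**Figure D3:**
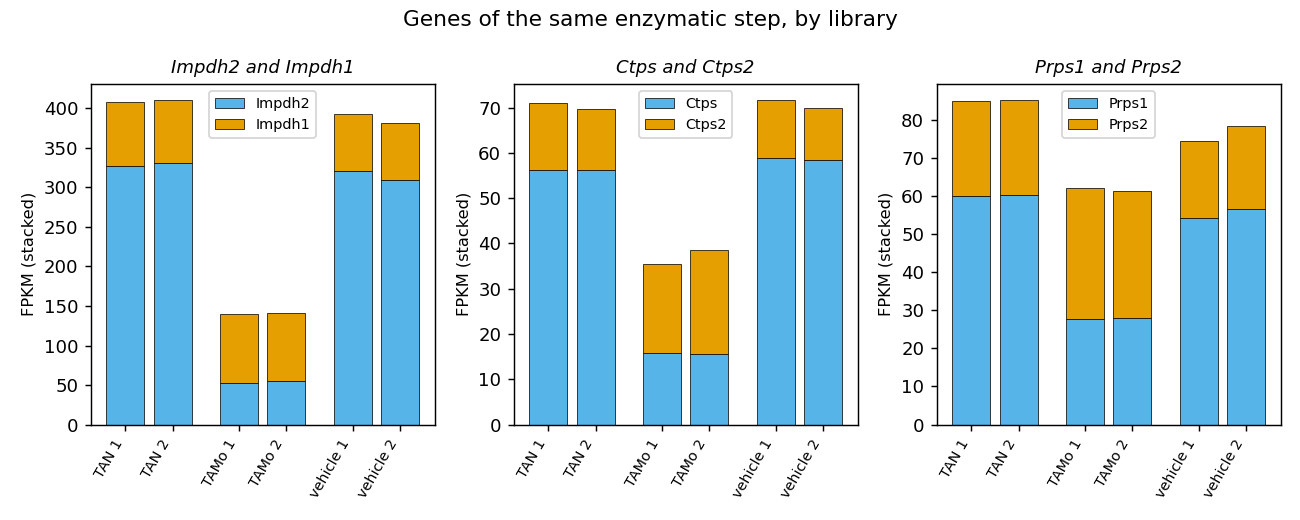
Levels (FPKM) of pairs of genes for the same reaction in every library, TAN, TAMo and vehicle from left to right, with the 2 genes of a pair stacked. Impdh1, Ctps2 and Prps2 make up the larger part of their pair in the TAMo libraries and the smaller part in the other 4.

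Further steps of the routes were also compared. Gmps, which completes guanosine monophosphate after Impdh2, averaged 21.5 ± 0.94 FPKM in TAN cultures, 7.09 ± 0.07 FPKM in TAMo cultures and 21.1 ± 0.25 FPKM in vehicle cultures (SD, n = 2 each), with a log2 change of -1.45 ± 0.05 in TAMo against vehicle (limma, adjusted p = 8.46e-08). Dhodh, the mitochondrial enzyme between Cad and Umps, averaged 30.4 ± 0.45 FPKM in TAN cultures, 9.66 ± 0.24 FPKM in TAMo cultures and 31.0 ± 1.90 FPKM in vehicle cultures (SD, n = 2 each), a log2 change of -1.58 ± 0.05 in TAMo against vehicle (limma, adjusted p = 6.90e-08). Low levels thus extended to the gene after Impdh2 and the gene before Umps, while Cad, at the head of the pyrimidine route, stayed close to vehicle. Adss, which sends IMP to the adenine branch, went the other way, at 53.3 ± 0.47 FPKM in TAN cultures, 86.8 ± 2.31 FPKM in TAMo cultures and 52.2 ± 1.60 FPKM in vehicle cultures (SD, n = 2 each). Its log2 change in TAMo against vehicle was 0.72 ± 0.04 (limma, adjusted p = 6.28e-07), while its low-level partner Adssl1 averaged 1.18 FPKM in TAMo cultures against 2.64 FPKM in vehicle cultures. Neither Gmps, Dhodh, Adss, Adssl1, Ctps2 nor Prps1 was called in TAN against vehicle. Impdh1 (log2 change 0.15 ± 0.03, limma, adjusted p = 0.0144) and Prps2 (0.24 ± 0.05, limma, adjusted p = 0.0132) rose in TAN cultures, but the Impdh1 call was lost without any one of the 4 libraries (adjusted p 0.0617 to 0.0904) and the Prps2 call without TAN replicate 1, TAN replicate 2 or vehicle replicate 1 (0.0723 to 0.0750).

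Lists of related genes, 7 in all, were set beside the synthesis enzymes, and their counts stand against the 45.7% of all tested genes called higher and the 40.7% called lower in TAMo against vehicle. In TAMo against vehicle, the other synthesis and branch enzymes split into 6 higher and 5 lower of 12 tested, with a median log2 change of 0.13. Of 17 tested salvage enzymes and nucleoside carriers, which recycle bases and nucleosides, 6 rose and 11 fell, with a median of -0.49. The thymidine kinase gene Tk1 averaged 103 FPKM in TAN cultures, 2.62 FPKM in TAMo cultures and 95.9 FPKM in vehicle cultures, and the nucleoside carrier gene Slc29a1 averaged 117 FPKM in TAN cultures, 15.1 FPKM in TAMo cultures and 137 FPKM in vehicle cultures. Upp1, a uridine phosphorylase, rose in TAMo cultures (4.58 FPKM in TAMo cultures, 1.19 FPKM in vehicle cultures). All 3 were called in TAMo against vehicle (limma, adjusted p 6.03e-10 to 5.21e-05).

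Genes for deoxynucleotide supply fell furthest among the lists, with 9 lower and 2 higher of 11 tested and a median log2 change of -2.44. Dut, which removes deoxyuridine triphosphate, averaged 203 FPKM in TAN cultures, 9.32 FPKM in TAMo cultures and 186 FPKM in vehicle cultures, and Tyms, the thymidylate synthase gene, averaged 46.2 FPKM in TAN cultures, 3.04 FPKM in TAMo cultures and 52.7 FPKM in vehicle cultures. Rrm2b, a ribonucleotide reductase subunit that p53 can induce, rose in TAMo cultures (27.5 FPKM in TAMo cultures, 13.2 FPKM in vehicle cultures, log2 change 1.003 ± 0.058, limma, adjusted p = 1.54e-06). Among nucleotide kinases 4 rose and 8 fell of 14 tested, with Dtymk at 16.9 FPKM in TAMo cultures against 107 FPKM in vehicle cultures and Ak1 at 70.2 FPKM in TAMo cultures against 0.080 FPKM in vehicle cultures. Of 11 breakdown enzymes, 3 rose and 6 fell.

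Precursor supply covers the serine, one-carbon, glutamine and pentose phosphate steps that provide the atoms of the rings and the ribose. Of 20 tested genes 15 fell and 2 rose in TAMo cultures, with a median log2 change of -0.82. Phgdh, which starts serine synthesis, averaged 521 FPKM in TAN cultures, 17.9 FPKM in TAMo cultures and 543 FPKM in vehicle cultures. Shmt2, which takes a one-carbon unit from serine in mitochondria, averaged 289 FPKM in TAN cultures, 23.4 FPKM in TAMo cultures and 314 FPKM in vehicle cultures. Both were far lower in TAMo cultures than in TAN or vehicle cultures. The glutamine carrier gene Slc1a5 had 269 and 270.2 FPKM in TAN cultures, 132 and 127 FPKM in TAMo cultures, and 345 and 341 FPKM in vehicle cultures. It fell in TAN cultures too (log2 change -0.35 ± 0.03, limma, adjusted p = 6.35e-04), one of 3 precursor genes called lower there, with 2 called higher and 15 not called, against 11.0% of all tested genes called lower and 9.37% called higher.

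**Figure D4:**
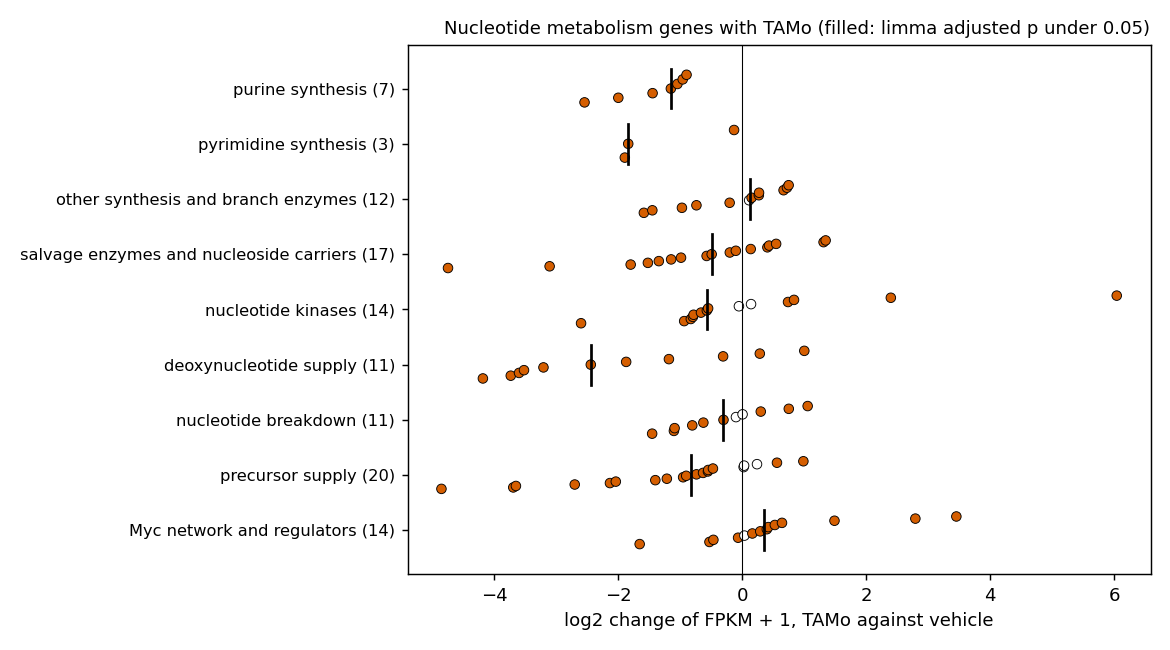
Log2 change, on the log2(FPKM + 1) scale, of every tested gene of each list in TAMo against vehicle (1 point per gene, filled where called, bar at the list median). The medians are -1.15 for purine synthesis, -1.84 for pyrimidine synthesis and -2.44 for deoxynucleotide supply, against 0.13 for the other synthesis and branch enzymes.

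In the Myc network 9 of 14 tested genes were called higher and 4 lower in TAMo against vehicle, against 45.7% and 40.7% of all tested genes. Myc itself had 353 and 354 FPKM in TAN cultures, 292 and 296 FPKM in TAMo cultures, and 423 and 425 FPKM in vehicle cultures. It fell in both co-cultures, with a log2 change of -0.26 ± 0.02 in TAN against vehicle (limma, adjusted p = 8.96e-04) and -0.53 ± 0.02 in TAMo against vehicle (limma, adjusted p = 3.62e-07). The relation of the Myc level to those of the synthesis genes was not tested. Mxd4, whose product competes with Myc for Max, averaged 1.58 FPKM in TAN cultures, 31.5 FPKM in TAMo cultures and 1.97 FPKM in vehicle cultures. The related gene Mxd3 went the other way, at 6.33 FPKM in TAN cultures, 1.36 FPKM in TAMo cultures and 6.42 FPKM in vehicle cultures. Its log2 change in TAMo against vehicle was -1.65 ± 0.08 (limma, adjusted p = 4.36e-07). Xdh, a breakdown enzyme that makes uric acid, had 6.26 and 5.83 FPKM in TAN cultures, 2.73 and 3.14 FPKM in TAMo cultures, and 9.88 and 9.61 FPKM in vehicle cultures, and it fell in TAN against vehicle (log2 change -0.61 ± 0.08, limma, adjusted p = 0.00300). In TAN against vehicle, where 9.37% of all tested genes were called higher and 11.0% lower, the other lists had 2 higher and 0 lower of 12 other synthesis enzymes, 2 higher and 3 lower of 17 salvage genes, 0 higher and 1 lower of 14 kinases, 2 higher and 1 lower of 11 deoxynucleotide genes, 0 higher and 1 lower of 11 breakdown enzymes, and 0 higher and 3 lower of 14 genes of the Myc network.

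All 10 genes were lower in TAMo cultures than in the others, but by unequal amounts. The distance used here was taken on centred values that were not scaled, so it includes the size of the fall. Measured as the root mean square distance over the 6 libraries from the mean centred log2 profile of the 10 genes, Pfas was nearest at 0.03, and Cad at 0.60 and Impdh2 at 0.56 were farthest. The 5 other tested genes nearest to this mean profile were Cacybp, Ppm1g, Atp5o, Clcn6 and Gars, at distances of 0.025 to 0.030. Cacybp, for example, averaged 157 FPKM in TAN cultures, 57.4 FPKM in TAMo cultures and 152 FPKM in vehicle cultures.

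Ppat and Paics lie head to head on chromosome 5 of GRCm38, Ppat at 76913249 to 76951578 on the minus strand and Paics at 76951307 to 76967509 on the plus strand. Their annotated exons share 272 bases, 6.2% of the exon length of Ppat and 8.7% of that of Paics, and their RefSeq starts are 276 bases apart. The ratio of Paics to Ppat was 3.59 ± 0.15 in TAN cultures, 1.60 ± 0.005 in TAMo cultures and 3.28 ± 0.04 in vehicle cultures (SD, n = 2 each), so the neighbours fell by unequal amounts in TAMo cultures. Gart on chromosome 16 shares 1014 exon bases, 19.7% of its exon length, with the antisense gene Gm15964, and Umps on chromosome 16 shares 213 bases, 6.1%, with the antisense gene Gm15829. Impdh2 on chromosome 9 shares 48 bases, 1.6%, with Ndufaf3, which averaged 8.05 FPKM in TAN cultures, 9.15 FPKM in TAMo cultures and 7.77 FPKM in vehicle cultures. Strand use in counting is not stated, so reads in these shared stretches cannot be told apart. Pfas, on chromosome 11, shares 39 bases with the miRNA gene Mir3062, and Adsl, Atic, Cad and Ctps, on chromosomes 15, 1, 5 and 4, share no exon base with another annotated gene.

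Depth, read from the steps between low values, was estimated at 41.7 to 45.2 M counted reads in the libraries other than TAMo replicate 1. For TAMo replicate 1 the estimate was 43.8 M, but even read numbers made up 98.8% of its low values, against 60.2% to 63.8% elsewhere. The true step of that library may thus be larger, and its depth well below 43.8 M and below that of the others. Without that library the median log2 change of the 10 genes in TAMo against vehicle was -1.29, and all 10 kept their call. The share of FPKM from mitochondrial genes was 8.07% and 8.21% in TAN libraries, 1.20% and 1.32% in TAMo libraries, and 8.15% and 8.34% in vehicle libraries. Rescaled without them, the median change of the 10 genes in TAMo against vehicle was -1.20. All 9 CD8 T cell markers in the table were above 1 FPKM in every library, with sums of 2279 and 2296 FPKM in TAN, 2196 and 2171 FPKM in TAMo and 2292 and 2322 FPKM in vehicle cultures. Within this list 5 were called higher and 4 lower in TAMo against vehicle (limma), among them Cd3d at 209.9 ± 3.39 FPKM in TAMo and 149 ± 2.02 FPKM in vehicle cultures, Cd8a at 94.8 ± 0.42 FPKM in TAMo and 148 ± 5.06 FPKM in vehicle cultures, and Cd2 at 51.8 ± 5.03 FPKM in TAMo and 196 ± 9.76 FPKM in vehicle cultures (SD, n = 2 each). These 3 were chosen after their values were seen. The 12 neutrophil markers summed to at most 0.531 FPKM, with S100a8 and S100a9 at 0 in all libraries. The 15 monocyte and macrophage markers summed to 25.3 and 25.5 FPKM in TAN, 14.2 and 17.1 FPKM in TAMo and 32.6 and 33.0 FPKM in vehicle cultures. Ly6c2 was the main part in TAN (22.1 and 23.4 FPKM) and vehicle cultures (29.3 and 30.3 FPKM), but not in TAMo cultures (4.39 and 3.64 FPKM). It was highest in vehicle cultures, to which no TANs or TAMos were added, so the sum does not rank the groups by myeloid RNA. C1qa and C1qb were at 0. Cd14 was at 2.84 and 3.18 FPKM and Vcan at 2.64 and 2.46 FPKM in TAMo cultures, against at most 0.09 FPKM in the other 4 libraries. Both were picked after their values were seen. Only 4 genes of this list were tested, with 3 called higher and 1 lower in TAMo against vehicle (limma). The lower one, Ly6c2, averaged 4.01 FPKM in TAMo and 29.8 FPKM in vehicle cultures. Lyz2, not tested, averaged 0.143 FPKM in TAMo and 0.093 FPKM in vehicle cultures. The part of these markers in the levels of the synthesis genes was not tested.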

How the data were processed

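RNA was measured in 6 libraries of OT-I cells, grouped by the labels. The deposited values are FPKM per gene, computed by the authors. Build mm10, featureCounts 1.5.0-p3, HISAT2 2.0.5 and CASAVA are listed, without their roles, per the submitters' processing notes. Annotation, strand setting and gene lengths are not stated. Because FPKM is a relative measure, abundant transcripts that change also shift every other gene.

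The 10727 genes reaching 1 FPKM in 2 or more of the 6 libraries entered limma 3.58.1 in R 4.3.3 (lmFit, contrasts.fit, eBayes with trend; 3 residual and 4.07 prior degrees of freedom) on log2(FPKM + 1). Tests were two-sided and adjusted by Benjamini-Hochberg over all tested genes at 0.05. Without adjustment, 3737 genes in TAN against vehicle, 9332 in TAMo against vehicle and 9341 in TAN against TAMo had p under 0.05. No libraries held identical values, and replicates correlated across genes at 0.996 to 0.998 (Pearson, log2 values). Depth was estimated from step sizes among low values in 7708 genes with 1 transcript, where 98.6% to 99.0% of values up to 40 reads were whole within 0.1. Coordinates are from GENCODE mouse release 21 on GRCm38, the assembly of mm10, and promoter sequences from RefSeq.

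The genes and lists were chosen with earlier results of these data known. All 10 genes, the enzymes of the same step, Myc, and from each related list the largest called rise and the 2 largest called falls of a comparison could be named. Alternatives were another scaling, pseudocount or filter, no variance trend, a replicate block, 2 groups only, and each library left out.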

Additional observations from a re-analysis of the deposited data

How the results depend on the processing

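Over 16 alternatives, each of the 10 genes kept its direction where called, and 159 of 160 values in TAMo against vehicle, 159 of 160 in TAN against TAMo and 149 of 160 in TAN against vehicle kept their side of the threshold. The count of 10 lower genes in TAMo against vehicle, and of 10 higher in TAN against TAMo, was 9 after rescaling without mitochondrial transcripts, where Cad was not called, and 10 otherwise, also without any one library. In TAN against vehicle the limma count of lower genes was 1, and 0 with equal medians, with quantile normalisation, without a filter and without a variance trend (unadjusted p under 0.05 in 3, 3, 4 and 2 of the 10 genes). Leaving out 1 library gave 0 to 1 higher and 0 to 1 lower genes there (unadjusted p under 0.05 in 1 to 4 genes), medians of -0.02 to 0.01, and, over all tested genes, 307 to 1297 higher and 351 to 1505 lower, against 1005 and 1175, with at most 390 higher and 448 lower without a TAN or vehicle library. Without a filter these counts were 644 and 687. The median of the 10 genes in TAMo against vehicle was -1.20 without mitochondrial transcripts, -1.32 with equal medians and -1.32 with a pseudocount of 0.1; in TAN against TAMo it was 1.14 and 1.27 under both scalings. Rescaling without mitochondrial transcripts put the median of all genes at 0.15 in TAMo against vehicle and -0.15 in TAN against TAMo, and it turned the direction of Atf4 in TAMo against vehicle (log2 change 0.033, limma, adjusted p = 0.264); the cause was not tested. Same-numbered libraries deviated from their group means with correlations of 0.008 to 0.057, so no strong shift shared by replicate number was seen. With 2 libraries a group, this cannot show whether same-numbered libraries share an origin. With the replicate block, 2140 genes were called in TAN against vehicle (2180 without it), 9282 in TAMo against vehicle (9275) and 9300 in TAN against TAMo (9290), with 10 synthesis genes lower in TAMo against vehicle. With 2 libraries a group, no library could be tested as an outlier.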
